A study of Mus musculus with 15 samples.

Results

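The Dlk1-Dio3 domain on mouse chromosome 12 holds an imprinted cluster of microRNA hairpins, and its mature products were followed here in foetal testis. Members were the mature microRNA names of the small RNA tables whose number was one of 43 numbers of this cluster, with any letter and either arm, and they were chosen by name and not by level. In all, 88 mature names from 44 hairpins met this rule, out of 1305 mature names with reads in the 6 libraries. Together they stood for 878 distinct sequences. No mature read was filed under miR-654 or miR-758, which RefSeq places in the cluster.

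The study asked whether TEX15, a protein of the foetal germline, is needed for small RNA production and transposon silencing. Small RNA was sequenced from E16.5 testes of Tex15+/- controls (3 libraries) and Tex15-/- embryos (3 libraries) on a mixed B6CBAF1/Crl; C57BL/6N background, with 6 foetal testes pooled in each library. The Tex15 null allele carries an insertion in exon 5 that brings in stop codons, so every control was heterozygous for it. Gonocytes, the foetal male germ cells, were also sorted at E16.5 by a tdTomato reporter (Miwi2 tdTom/+) from Tex15+/- and Tex15-/- testes (3 libraries each) and their long RNA was sequenced.

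The domain is expressed according to parental origin. From the paternal chromosome come the protein-coding genes Dlk1, Rtl1 and Dio3, and from the maternal chromosome come the non-coding RNAs Meg3, Rian and Mirg together with the microRNAs. A methylated region between Dlk1 and Meg3 marks the paternal chromosome, and this mark is laid down in the foetal male germline. Like other microRNAs, the members are cut from hairpins by Drosha and Dicer, and the seed, bases 2 to 8 of the mature strand, is the main determinant of target choice.

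On GRCm38 the hairpins of the cluster ran from Mir673 to Mir410, chr12:109571990-109743795, a stretch of 172 kb in which RefSeq places 46 hairpins of the rule's numbers, 45 on the plus strand and 1, Mir299b, on the minus strand, Mir654 and Mir758 included. Meg3 (chr12:109541001-109571726) ends just before the first hairpin. The anti-Rtl1 members, miR-431, miR-433, miR-127, miR-434 and miR-136, lie within an exon of Rtl1 (chr12:109589193-109600330) on the opposite strand, so they are fully complementary to its transcript. In the GENCODE annotation miR-370 lies in an intron of Rian, miR-541, miR-409, miR-369 and miR-382 in introns of Mirg, and miR-134 and miR-410 in Mirg exons, whereas miR-379, miR-411, miR-381, miR-543 and miR-337 fall in no annotated host gene. For description the members were split by position into a proximal group (18 names, miR-673 to miR-136), a middle group (4 names, miR-341 and miR-370) and a distal group (66 names, miR-379 to miR-410).

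The mature sequences of the leading members are shown because the results below turn on them. They are RefSeq sequences on GRCm38.p6, which held 84 of the 88 names, with the seed in capitals. The proximal and middle members were:

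miR-337-5p: cGGCGUCAugcaggaguugauu
miR-433-3p: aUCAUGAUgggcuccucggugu
miR-127-3p: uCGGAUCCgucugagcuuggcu
miR-434-5p: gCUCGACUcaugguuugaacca
miR-434-3p: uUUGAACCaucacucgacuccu
miR-370-3p: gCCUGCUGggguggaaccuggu

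The distal members were:

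miR-379-5p: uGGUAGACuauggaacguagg
miR-411-5p: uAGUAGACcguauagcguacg
miR-379-3p: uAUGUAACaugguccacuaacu
miR-411-3p: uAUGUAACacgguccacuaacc
miR-543-3p: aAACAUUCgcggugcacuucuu
miR-381-3p: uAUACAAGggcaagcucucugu
miR-382-5p: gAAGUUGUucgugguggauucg
miR-134-5p: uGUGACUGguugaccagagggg
miR-541-5p: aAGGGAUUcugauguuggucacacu
miR-409-3p: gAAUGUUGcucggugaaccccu

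Among the 84 members with reads and a RefSeq sequence, 4 seeds occurred more than once. The most abundant of these was AUGUAAC, shared by miR-411-3p and miR-379-3p from neighbouring hairpins, and the others joined miR-299a-3p with miR-299b-3p, miR-376b-5p with miR-376c-5p, and miR-410-5p with miR-494-5p. Among names outside the rule, the seed of miR-379-5p was found in miR-1193-5p, whose hairpin lies in the same stretch of chromosome 12 but whose number was not listed, and that of miR-411-5p in miR-7229-5p from another chromosome, while the other leading members shared their seed with no other mouse name of the RefSeq table.

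The libraries held 5671330 to 34180789 mature microRNA reads, control replicate 2 being the deepest by far. These made up 41.1 to 50.7% of the reads of 18 to 32 nt, the highest share being that of Tex15-/- replicate 2. Levels below are in RPM, the reads of a name for each 1000000 mature microRNA reads of the library, and 3 reads corresponded to 0.0878 to 0.529 RPM. Nothing in the labels ties a library to named embryos beyond the pool of 6 testes, so p-values measure the spread between these pools. Because whole testis was used, fewer cells of a type and less RNA per cell cannot be told apart.

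The members made up 9.26, 9.33 and 9.61% of these reads in the 3 control libraries and 9.97, 10.4 and 9.31% in the 3 Tex15-/- libraries. The mean was 9.40% ± 0.186 (SD, n = 3) in controls against 9.91% ± 0.570 (SD, n = 3) in Tex15-/- testes, and the groups overlapped (exact permutation test, two-sided p = 0.3, where 3 against 3 cannot go below 0.1). For comparison, the let-7 family made up 12.1 to 17.7% of mature reads, the miR-17-92 cluster with its paralogues 0.980 to 1.22%, and the pluripotency clusters miR-290 and miR-302 0.313 to 0.475%. When the members were set against all reads of 18 to 32 nt instead, they held 4.03, 3.84 and 4.05% in controls against 4.16, 5.30 and 4.24% in Tex15-/- libraries, which did not overlap (exact permutation p = 0.1, the smallest possible). This denominator also holds piRNAs and fragments of other RNAs, and the mature microRNA share of it was itself highest in Tex15-/- replicate 2.

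By the mature label the distal group carried most of the signal. It gave 65.97% of the members' reads on average over the libraries, the proximal group 22.5% and the middle group 11.5%. This split depends on the label. The proximal miR-127-3p had 545746 reads by the mature label and 2422560 among reads of any class, a count described below. For the distal miR-379-5p the counts were 1297293 and 1515042. The distal share of mature reads was 6.19% ± 0.158 in controls against 6.55% ± 0.351 in Tex15-/- testes (SD, n = 3 each, exact permutation p = 0.3), and the proximal share was 2.18% ± 0.104 and 2.16% ± 0.146 (exact permutation p = 0.8). The middle share, nearly all of it miR-370-3p, was 1.04% ± 0.0682 and 1.196% ± 0.269 (exact permutation p = 0.5), with Tex15-/- replicate 2 alone at 1.48% and every other library between 0.942 and 1.17%. The anti-Rtl1 members summed to 2.02% ± 0.113 and 2.03% ± 0.153 (exact permutation p = 1). No comparison in this family of 6 had an adjusted p below 0.6 (Benjamini-Hochberg).

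**Figure D1:**
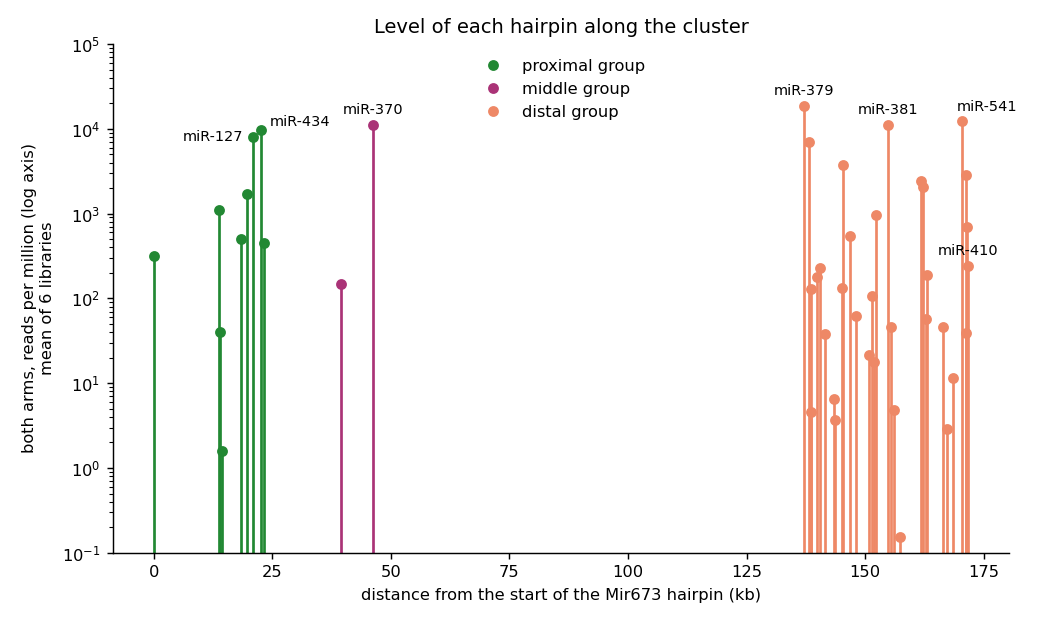
Mean level of each hairpin, both arms together, in RPM on a log axis against its distance in kb from the start of the Mir673 hairpin, coloured by position group. High and low hairpins alternate over short distances in the proximal and the distal group, and 2 hairpins lie between them.

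Within the cluster the levels ran from 17861 RPM down to 0.00975 RPM. Over the 6 libraries 4 names averaged at least 10000 RPM, 15 at least 1000 RPM and 30 at least 100 RPM, while 15 stayed below 1 RPM. The top 3 names held 42.6% of the members' RPM, the top 6 held 70.8% and the top 15 held 93.8%. The hairpin map shows that abundance did not follow position, since miR-379 and miR-411 at the start of the distal group, miR-381 near its middle and miR-541 near its end were all high, with hairpins below 100 RPM between them.

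By the mature label the most abundant member was miR-379-5p, rank 12 among all mature names. It stood at 16733, 18829 and 19253 RPM in controls and at 19350, 15762 and 17240 RPM in Tex15-/- libraries, so the highest and the lowest value both came from the mutant group. Its passenger strand, miR-379-3p, was at 727, 764 and 860 RPM against 635, 336 and 724 RPM, a log2 fold change of -0.33 ± 0.27 (SE) in edgeR with an adjusted p of 0.554, and the 2 groups just failed to overlap. Dropping Tex15-/- replicate 2, the lowest, gave -0.07, while -0.50 was reached without Tex15-/- replicate 3. The neighbouring miR-411-5p varied little, at 6109, 5318 and 5803 RPM in controls against 5415, 5408 and 5635 RPM in Tex15-/- libraries.

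Rank 16 was taken by miR-541-5p, which was at 10604, 10948 and 11911 RPM in controls against 13693, 14604 and 11473 RPM in Tex15-/- libraries. Replicate 3 of the mutant group fell among the controls. Its log2 fold change was 0.41 ± 0.16 (SE) with an adjusted p of 0.364 (edgeR). The next in level were 3′ members, miR-381-3p, at 9423 to 10908 RPM in controls against 10272 to 12835 RPM in Tex15-/- libraries, and miR-370-3p, at 9570 to 10946 and 9262 to 14561 RPM.

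Of the anti-Rtl1 members, which are known to direct cleavage of the Rtl1 transcript, 6 names were above 400 RPM and 4 below 60 RPM. By the mature label, though not by reads of any class (described below), the 5′ strand of miR-434 led. It was at 10025, 7634 and 7311 RPM in controls against 8251, 8496 and 8037 RPM in Tex15-/- libraries, followed by miR-127-3p with 6684, 7460 and 8556 RPM and 8854, 9321 and 6593 RPM. Both overlapped between the groups, with log2 fold changes of 0.14 ± 0.17 and 0.29 ± 0.20 (SE). With 1 library left out, that of miR-434-5p ranged from 0.04 (without control replicate 3) to 0.29 (without control replicate 1). For miR-127-3p it ranged from 0.18 (without Tex15-/- replicate 1 or without replicate 2) to 0.45 (without Tex15-/- replicate 3). A wide spread was seen for miR-136-5p, at 842, 365 and 358 RPM in controls against 219, 179 and 451 RPM in Tex15-/- libraries, where control replicate 1 stood apart. Its log2 fold change was -0.76 ± 0.44 (SE, adjusted p = 0.413, edgeR) with all libraries, and it was -0.23 when control replicate 1 and -1.21 when Tex15-/- replicate 3 was left out. The remaining names averaged 1697 RPM (miR-433-3p), 1385 RPM (miR-434-3p), 496 RPM (miR-431-5p), 51.3 RPM (miR-136-3p), 13.5 RPM (miR-127-5p), 6.19 RPM (miR-433-5p) and 1.67 RPM (miR-431-3p), with adjusted p from 0.404 to 0.923.

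The other members of the 15 most abundant overlapped between the genotypes. In the distal group, miR-543-3p was at 3602 to 3837 RPM in controls against 3501 to 4138 RPM in mutants, miR-382-5p at 2175 to 2483 and 2363 to 2764 RPM, miR-134-5p at 1926 to 2217 and 1968 to 2269 RPM, and miR-411-3p at 1173 to 1531 and 1309 to 1501 RPM. The most proximal of them, miR-337-5p, was at 989 to 1399 RPM in controls against 859 to 1107 RPM in mutants. For the names in this paragraph so far, log2 fold changes lay between -0.09 and 0.24, and every adjusted p was at least 0.404 in edgeR. Also among the 15 is miR-409-3p, whose values are given below (log2 fold change 0.70, adjusted p = 0.364, edgeR).

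Below these stood less abundant members. The highest was miR-300-3p, at 769, 933 and 1052 RPM in controls against 950, 1148 and 881 RPM in mutants. It was followed by miR-379-3p, whose values are given above, then by miR-495-3p, at 450.5 to 602 and 366.9 to 670 RPM, and miR-369-5p, at 520 to 642 and 446 to 589 RPM. Libraries differed more for miR-410-3p, the last member of the cluster, at 386, 206 and 229 RPM against 195, 114 and 208 RPM, where control replicate 1 was again the highest (log2 fold change -0.52 ± 0.32, adjusted p = 0.429, edgeR). It became -0.19 with control replicate 1 left out and -0.31 with Tex15-/- replicate 2 left out.

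The miR-376 family, best known as a substrate of RNA editing in the brain, was low in foetal testis by the mature label. Its most abundant names were miR-376b-5p at 54.0 RPM and miR-376b-3p at 51.4 RPM, followed by miR-376c-3p at 21.2 RPM, miR-376a-5p at 15.1 RPM and miR-376a-3p at 2.46 RPM, with miR-376c-5p at only 0.0732 RPM. Both arms of miR-376b were lower in each Tex15-/- library than in each control, at 59.4 to 67.1 RPM against 39.7 to 54.4 RPM for the 5′ arm and 52.6 to 69.6 RPM against 29.3 to 51.7 RPM for the 3′ arm. Their adjusted p in edgeR were 0.412 and 0.404, so neither passed.

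**Figure D2:**
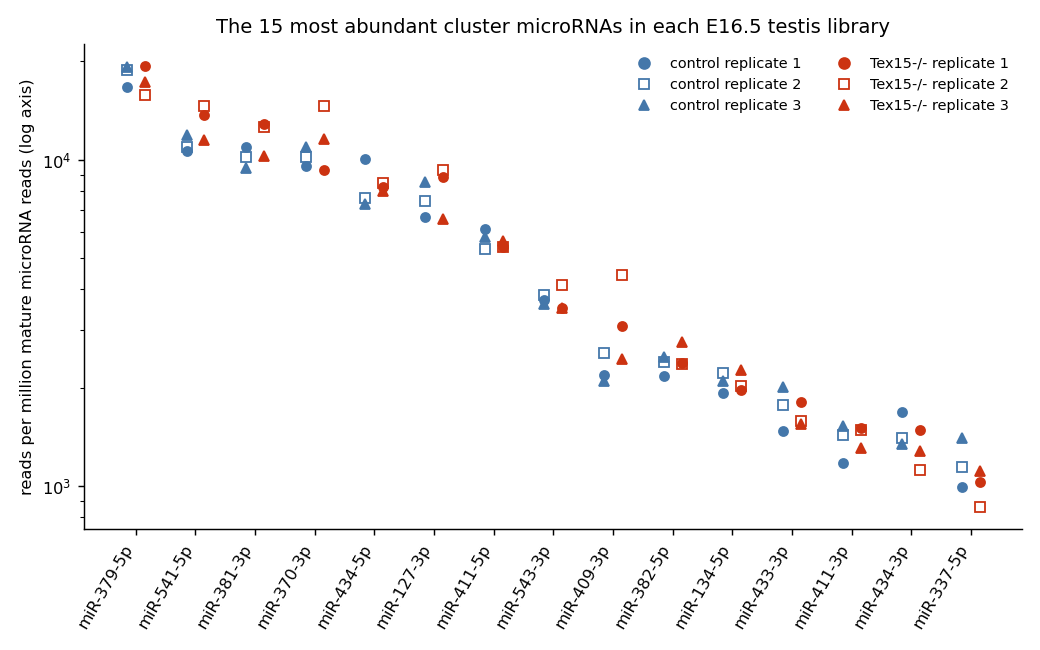
RPM on a log axis of the 15 members with the highest mean, 1 symbol a library, controls to the left and Tex15-/- to the right of each tick. Control and Tex15-/- libraries overlap for every one of the 15, and Tex15-/- replicate 2 is the highest point for miR-370-3p at 14561 RPM and miR-409-3p at 4416 RPM.

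Member by member, no microRNA of the cluster passed the test between genotypes. After a filter on low counts, edgeR's quasi-likelihood test covered 580 mature names, 73 of them members, and the remaining 15 members were too low to be tested. At an adjusted p under 0.01 no member and no other name was called, that is, 0% of all mature names tested. At an adjusted p under 0.05 the call rate over all names was 0.862% (3 higher and 2 lower), with no member among them. At an unadjusted p under 0.05 there were 6 members of 73, against 13.6% of all names tested. DESeq2 called 11 names at 0.01, of which 1 was a member.

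The median log2 fold change of the 73 members was 0.04, beside -0.01 over all 580 names, with 38 members above 0 and 35 below. Without edgeR's TMM scaling factors the medians were -0.10 and -0.15, so both medians moved down with the change of scaling. Which scaling is closer to the RNA amounts was not tested. For 11 of the 73 members the RPM of the 2 groups did not overlap, 3 of them higher in Tex15-/- testes, where the same held for 24.1% of all names tested. Among the 30 members with at least 100 RPM the median SD between replicates was 0.21 on the log2 scale, beside 0.26 over the 195 names at that level.

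The member nearest to a call was miR-485-5p, from a hairpin of the Mirg region. It was at 120, 140 and 121 RPM in controls against 224, 312 and 178 RPM in Tex15-/- libraries, so every mutant library lay above every control. The log2 fold change was 1.06 ± 0.26 (SE) with an adjusted p of 0.285 in edgeR, and DESeq2 gave 1.02 with an adjusted p of 0.00987, which is the 1 member called by that tool. It was named because it had the lowest adjusted p, after its values were seen. Leaving out Tex15-/- replicate 2 reduced its log2 fold change to 0.80.

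The other members with an unadjusted p under 0.05 in edgeR were miR-409-3p, miR-541-5p, miR-673-3p, miR-494-5p and miR-496a-3p, each with an adjusted p of 0.364. Of these only miR-496a-3p, at 3.54 to 4.33 RPM against 1.06 to 2.52 RPM, was lower in Tex15-/- testes. The miR-409-3p values were 2194, 2557 and 2094 RPM in controls against 3099, 4416 and 2442 RPM in Tex15-/- libraries, which overlapped. The 3 names that were higher in every mutant library were miR-485-5p, miR-673-3p (79.4 to 87.4 against 95.3 to 124 RPM) and miR-494-5p (1.17 to 1.76 against 2.10 to 3.17 RPM). The log2 fold change of miR-494-5p went from 0.87 by the mature label to 0.31 with reads of any class that held its bases 2 to 17, described below. The 8 that were lower in every mutant library were both arms of miR-376b, miR-369-3p, miR-379-3p, miR-496a-3p, miR-540-3p, miR-541-3p and miR-377-3p.

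**Figure D3:**
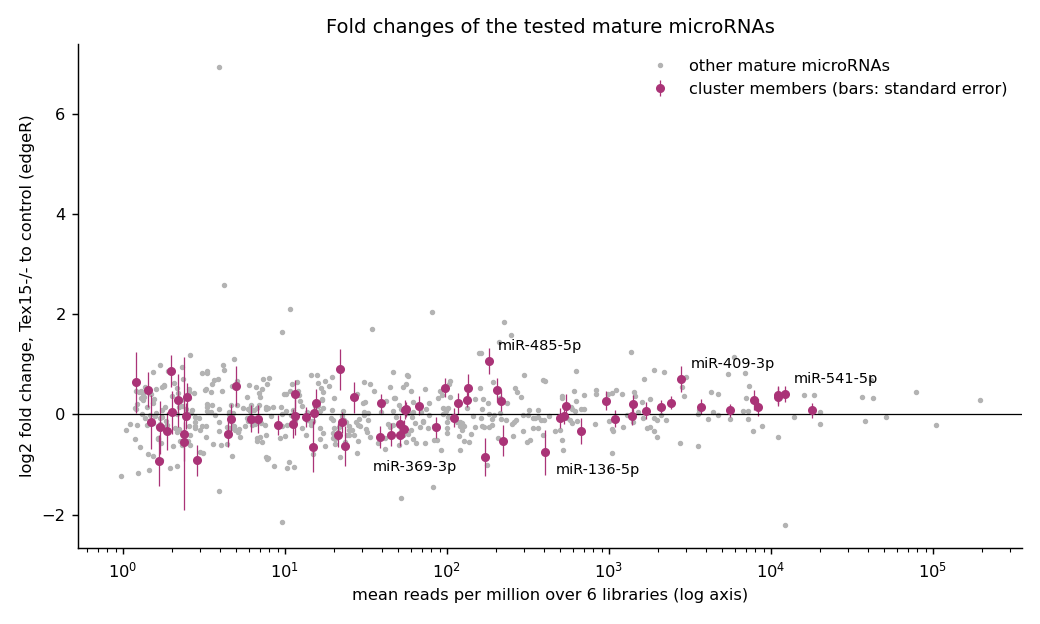
Log2 fold change of Tex15-/- against control (edgeR) for the 580 tested mature names against mean RPM on a log axis, with the 73 members and their standard errors in colour. The members lie between -0.92 and 1.06 and none of them was called.

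Base content moved with the level in some libraries. Over the 50 members with at least 10 RPM and a RefSeq sequence, the deviation of a library from the median of the other 5 was set against the share of G and C in the mature sequence. In Tex15-/- replicate 2 the 10 members under 40% G and C lay at a median log2 deviation of -0.85 and the 23 members with 50% or more at 0.08. The values were -0.47 and -0.01 in Tex15-/- replicate 1, and 0.03 and -0.02 in Tex15-/- replicate 3. Controls lay the other way or near 0, at 0.29 and -0.11 in replicate 1, 0.01 and 0.01 in replicate 2, and 0.19 and 0.05 in replicate 3. The same split over 327 mature names gave -0.52 and 0.08 in Tex15-/- replicate 2, so the pattern was not limited to the cluster. An example among the members is miR-369-3p, at 217, 222 and 245 RPM in controls against 116, 53.1 and 176 RPM in Tex15-/- libraries (log2 fold change -0.85 ± 0.37, adjusted p = 0.367 in edgeR, going from -0.51 without Tex15-/- replicate 2 to -1.23 without Tex15-/- replicate 3). Single members departed from the pattern in Tex15-/- replicate 2. There miR-541-3p (45.5% G and C) lay at -2.19, miR-540-3p (60%) at -0.93 and miR-495-3p (36.4%) at 0.25. The part of base content in the member values was not tested.

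Marker microRNAs of other cell types were read in the same libraries. The 10 names listed for smooth muscle and mesenchyme (miR-143, miR-145, miR-199 and miR-214) were all present and summed to 6.52 to 7.12% of mature reads in controls against 3.95 to 5.99% in Tex15-/- libraries, which did not overlap, and 0 of the 10 was called in edgeR. These names did not move alike. Log2 fold changes were 0.39 and -0.53 for miR-143 (3′ arm, then 5′ arm) and 0.00 and -0.63 for miR-145a. They were -2.21 and -0.23 for miR-199a, 0.05 and -0.51 for miR-199b, and -0.26 and -0.05 for miR-214. The SE was 1.23 for miR-199a-3p and 1.03 for miR-199b-3p. The annotation gave each mature sequence 1 name even where its bases fit another. The values of these 2 names therefore cannot be read as separate levels. The endothelial marker miR-126 (2 names) summed to 3.77 to 4.75% and 3.14 to 4.11%, and the germ and pluripotent markers are the miR-290 and miR-302 clusters given above. The other 7 lists (miR-202 of gonadal somatic cells, red cells, white cells, striated muscle, neurons, duct epithelium, liver) each stayed at or below 0.318% in every library, of which only the neuronal one (4 names) did not overlap between the groups, at 0.0175 to 0.0211% against 0.0121 to 0.0169%. Their part in the member levels was not tested.

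Each hairpin can give a mature strand from its 5′ arm and its 3′ arm, and in this cluster the choice was usually one-sided. Of the 34 member hairpins with at least 100 reads in every library, 9 gave over 90% of reads from the 5′ arm, 15 gave under 10%, and 10 lay between. The 5′ arm held 99.9% for miR-541 and miR-134 and 96.4% for miR-379, whereas it held 0.17% for miR-127 and 0.02% for miR-370. More even hairpins were miR-376b (51.7%), miR-154 (51.1%), miR-369 (76.6%), miR-411 (79.97%) and miR-434 (85.7%). These shares rest on the mature label alone. Over reads of any class that held bases 2 to 17 of either arm, a count described below, the 5′ share was 63.6% in place of 30.1% for miR-329, 25.1% in place of 51.7% for miR-376b (whose 5′ bases are also those of miR-376c), 62.7% for miR-154 and 91.0% for miR-382 in place of nearly 100%.

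Between genotypes, the median absolute difference of group means was 0.953 percentage points, beside 0.693 over all 185 hairpins, and the groups did not overlap for 6 of the 34 hairpins, where 27.6% of the whole table did so. The largest difference was that of miR-369, whose 5′ share was 74.8, 70.5 and 68.0% in controls against 79.8, 89.4 and 77.0% in Tex15-/- libraries (71.1% ± 3.44 and 82.0% ± 6.49, SD, n = 3 each, exact permutation p = 0.1, adjusted p = 0.567 over 34 hairpins). The 3′ strand of this hairpin is the AU-rich miR-369-3p, whose level by library is given above. The difference of miR-154 was as wide, 45.6% ± 2.83 and 56.6% ± 11.6, but its groups overlapped (exact permutation p = 0.3).

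Nearly all reads filed as mature microRNA were exact parts of the reference sequence, so longer or shifted forms were filed elsewhere. Reads of any class that held bases 2 to 17 of a mature sequence were therefore gathered as well, a choice made after seeing the data. Among such reads of the members, 64.8% on average carried the mature label, 22.5% were filed under genes, 9.18% under repeat elements and 3.57% under hairpins. For all other microRNAs the mature label covered 84.6% and the gene label 1.66%. The gene share of the members was 20.3 to 22.6% in controls against 21.9 to 24.8% in Tex15-/- libraries, and the exact permutation p was 0.2. Their repeat share was 9.34 to 10.1% in controls against 8.11 to 9.02% in Tex15-/- libraries, which did not overlap (exact permutation p = 0.1, the smallest possible). That of all other microRNAs was 10.4 to 11.6% against 9.45 to 10.6%, also with the lower mean in Tex15-/- libraries (exact permutation p = 0.2).

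With all classes counted, the order of the members changed. First place passed to miR-127-3p, with 2422560 reads over the 6 libraries, of which only 22.7% were filed as mature, and its rank among all microRNAs rose from 22 to 10. With all gathered microRNA reads as the base, its RPM was 25255, 28594 and 26857 in controls against 34471, 35033 and 26764 in Tex15-/- libraries. Tex15-/- replicate 3 fell among the controls. The cluster's share of microRNA reads on this count was at most 12.3% in controls and lay between 12.1 and 13.9% in Tex15-/- libraries, and no member was called by edgeR among the 73 tested (miR-485-5p, with no RefSeq sequence here, could not be counted), 10 (13.7%) having an unadjusted p under 0.05, beside 15.7% of all 594 names tested.

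Several members were almost lost to the mature label. It covered 3.08% of miR-485-3p reads, 10.2% of miR-540-3p reads and 23.4% of miR-376b-3p reads, of which 59.2, 89.4 and 76.6% were filed under repeat elements. Of miR-758-3p, which had no mature reads at all, 3451 reads held bases 2 to 17, and 97.9% of them carried a repeat label. Of the 34 members with at least 10000 such reads, 7 had under 50% with the mature label and 5 over 90%, with a median of 78.7%.

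**Figure D4:**
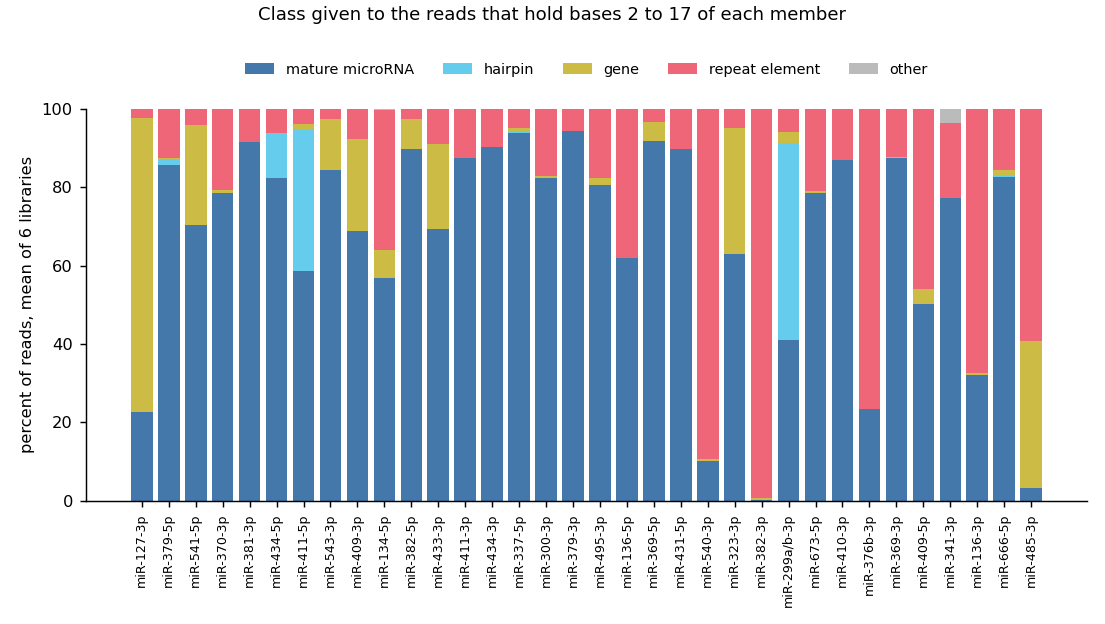
Class that the deposited tables gave to reads holding bases 2 to 17 of a member, in percent of those reads as the mean of 6 libraries, for the 34 members with at least 10000 such reads, from the most abundant on the left. The mature label covers 22.7% for miR-127-3p, 91.5% for miR-381-3p and 0.063% for miR-382-3p.

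Much of what the mature label missed for miR-127-3p carried 3′ tails, bases that the genome does not hold at that place. The commonest forms of miR-127-3p were as follows, written as the reads were, with unmatched bases in capitals:

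miR-127-3p form filed under genes, 29.5% of its reads: tcggatccgtctgagcttggctTT
miR-127-3p reference form, 15.5%: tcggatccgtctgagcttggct
miR-127-3p form filed under genes, 13.4%: tcggatccgtctgagcttggctTA
miR-127-3p form filed under genes, 12.7%: tcggatccgtctgagcttggctA

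The share of miR-127-3p reads that ended in 1 to 3 unmatched T or A bases was 71.3, 71.5 and 67.6% in controls against 71.9, 71.7 and 72.9% in Tex15-/- libraries. The means were 70.1% ± 2.22 and 72.2% ± 0.653 (SD, n = 3 each), and the exact permutation p was 0.1, the smallest possible. Tails of T only were on 32.3% of its reads, of A only on 15.2%, and of both bases on 23.7%. It had rank 5 for tailing among the 192 microRNAs with at least 10000 gathered reads, whose shares ran from 0.368 to 83.7%.

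Other members were tailed far less. Over the 34 members with at least 10000 reads the median share was 5.97%, beside 8.83% for 158 other microRNAs, and 4 members passed 20%. After miR-127-3p these were miR-134-5p (35.6%), miR-485-3p (35.3%) and miR-540-3p (30.9%), while miR-381-3p (0.71%) and miR-337-5p (0.55%) had almost none. The groups did not overlap for 6 of the 34 members, where 17.7% of all 192 did so. Besides miR-127-3p these were miR-485-3p and miR-433-3p, both higher in Tex15-/- testes, and miR-341-3p, miR-411-3p and miR-136-3p, all lower. For miR-411-3p the shares were 11.8, 11.6 and 11.3% in controls against 10.1, 9.93 and 10.2% in mutants. A tail base that happens to equal the genome counts as matched here, and a sequencing error to T or A at the end counts as a tail, so the lowest shares carry little meaning.

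**Figure D5:**
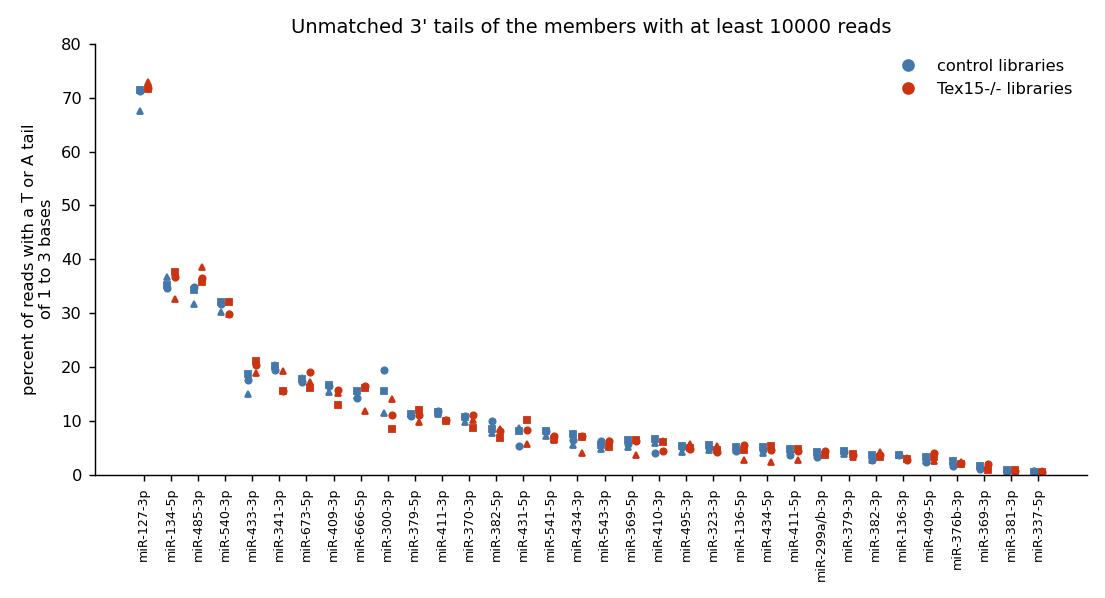
Percent of gathered reads that end in 1 to 3 T or A bases absent from the genome, for the 34 members with at least 10000 reads, 1 symbol a library. The 6 libraries of miR-127-3p lie between 67.6 and 72.9%, and most members lie below 20%.

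Not all extensions were untemplated. The form of miR-541-5p with 1 more base than the reference, aagggattctgatgttggtcacactc, matched the genome throughout, made up 16.4% of its reads and was filed under genes. The reference form held 26.1% and a form shorter by several bases, aagggattctgatgttggtc, held 15.9%. By contrast miR-379-5p was nearly uniform, with 72.3% of reads at the exact reference sequence.

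The 5′ end sets the seed, and for most members it was fixed. Over all gathered member reads the reference 5′ end was used by 93.8% ± 0.284 in controls against 94.2% ± 0.376 in Tex15-/- libraries (SD, n = 3 each, exact permutation p = 0.3). Of the 34 members with at least 10000 reads, 24 had over 90% of reads at the reference start and 4 had under 50%. The commonest read with a shifted start is shown for 6 members in which that start stood for over 30% of reads, with its bases 2 to 8 in capitals:

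miR-382-3p, 2 bases before the reference start: aATCATTCacggacaacacttt
miR-485-3p, 1 base after the reference start: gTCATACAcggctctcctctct
miR-136-3p, 1 base before the reference start: cATCATCGtctcaaatgagtct
miR-299a-3p or miR-299b-3p, 1 base before the reference start: gTATGTGGgacggtaaaccgct
miR-411-5p, 1 base before the reference start: aTAGTAGAccgtatagcgtacg
miR-136-5p, 3 bases before the reference start: aGGACTCCatttgttttgatga

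The clearest case was miR-382-3p. Only 30 reads carried its mature label, 0.36 RPM, although 21359 reads held its bases 2 to 17, and 96.3% of these began 2 bases before the reference start. Nearly all of its reads were filed under repeat elements. This start was used by 95.7 to 97.0% of its reads in every library. The 1-base shifts were carried by 71.9% of reads for miR-485-3p, 64.2% for miR-136-3p, 53.9% for miR-299a-3p with miR-299b-3p, which cannot be separated on these bases, and 38.0% for miR-411-5p, in which the reference start was still the main one (61.4%), as in miR-136-5p (64.9%). Smaller shifted shares were those of miR-323-3p, 25.9% 1 base early, and miR-409-3p, 22.4% 1 base late.

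Start site use overlapped between the genotypes for miR-411-5p and miR-136-5p. The earlier start of miR-411-5p was at 35.3, 39.5 and 42.3% in controls against 38.1, 33.4 and 39.3% in Tex15-/- libraries, with an exact permutation p of 0.4. The start 3 bases early of miR-136-5p was more variable, at 18.96, 30.9 and 32.1% in controls against 43.3, 46.1 and 28.8% in Tex15-/- libraries (exact permutation p = 0.3). Control replicate 1, which had the highest miR-136-5p level, had the lowest share of this start.

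A-to-G changes are the mark that adenosine deamination leaves in sequence, and several members are known substrates in the brain. They were counted in reads that differed from the mature sequence by a single base, for 21 members with at least 20000 reference reads, at 92 A positions counted from 1 at the 5′ end. The median share was 0.249%, which includes sequencing error, so each position was set beside the other A positions of its own member. Only 5 positions were more than 3 times the median of the others. The background was uneven, since single positions went down to 0 (A5G of miR-543-3p, with 262864 reference reads). No miR-376 name was among the 21 members.

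The position with the highest A-to-G share in the cluster was A5G of miR-411-5p, inside its seed. Other kinds of single-base change reached higher shares at single positions of these members, up to 0.836% for G to A and 0.663% for C to T. A5G was found in 0.638, 0.649 and 0.613% of reads in controls against 0.642, 0.569 and 0.670% in Tex15-/- libraries, beside a median of 0.0728% at the 4 other A positions of miR-411-5p. The groups overlapped (exact permutation p = 0.9). The others were A17G (0.377%) and A3G (0.235%) of miR-409-3p, A2G of miR-382-5p (0.355%) and A15G of miR-369-5p (0.192%). Of these, A3G of miR-409-3p and A15G of miR-369-5p lay below the median of 0.249% over all positions. The A positions they were set beside had a median of only 0.0221% in miR-409-3p and 0.0399% in miR-369-5p. The positions known to be edited in miR-379-5p and miR-381-3p in brain did not exceed the other A positions as clearly, with A5G of miR-379-5p at 0.359% beside a median of 0.279% and A4G of miR-381-3p at 0.183% beside 0.202%. A shortened form of A4G of miR-381-3p equals the start of miR-300-3p and was not counted, so this share may be too low.

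The host transcripts and neighbours of the cluster were read in sorted gonocytes, in CPM (gene counts scaled like RPM, with TMM factors). The targeted gene was lower in the mutants as labelled, with Tex15 at 1492, 1646 and 1645 CPM in controls against 463, 228 and 247 CPM in Tex15-/- libraries (log2 fold change -2.35 ± 0.23, adjusted p = 0.0112, edgeR). No domain gene passed an adjusted p under 0.01 among 6 of 7 tested, nor did any of the 16311 genes tested (0% called). At an unadjusted p under 0.05 there were 2 domain genes, Dlk1 and Begain, where 9.2% of all genes reached it. DESeq2 called 14 genes at 0.01, none of them in the domain.

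The maternally expressed non-coding RNAs that accompany the microRNAs had reads in the sorted gonocyte libraries of both genotypes. Rian, which carries snoRNAs and miR-370, was at 149, 196 and 169 CPM in controls against 172, 190 and 155 CPM in Tex15-/- libraries, a log2 fold change of 0.01 ± 0.13 (SE, adjusted p = 0.989). Meg3 was at 29.5, 31.7 and 30.6 CPM against 40.0, 50.6 and 26.2 CPM, and Mirg at 21.9, 23.8 and 17.9 CPM against 26.3, 13.5 and 16.95 CPM. Both overlapped between the groups. Marker genes of other cell types also had reads in these libraries, with 5 interstitial genes, named below, summing to 52.7 to 66.1 CPM in controls. The part of such cells in the Rian, Meg3 and Mirg values was not tested.

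Of the paternally expressed genes, Rtl1, a retrotransposon-derived gene needed in the placenta, was at 8.39, 14.8 and 13.0 CPM in controls against 12.1, 10.3 and 8.29 CPM in Tex15-/- libraries. Dio3, which inactivates thyroid hormone, held 4 to 15 reads a library and was too low to be tested. Dlk1, which encodes a membrane protein of foetal tissues, was at 43.8, 37.6 and 25.4 CPM in controls against 39.8, 144 and 57.5 CPM in Tex15-/- libraries, so that 1 mutant library stood apart. Its log2 fold change was 1.18 ± 0.40 (SE, adjusted p = 0.46, edgeR), 0.46 without Tex15-/- replicate 2, and 1.52 with an adjusted p of 0.00938 without Tex15-/- replicate 1, where 388 of 17520 genes were called at 0.01. Begain was at 24.8 to 41.4 CPM in controls against 39.2 to 54.7 CPM in Tex15-/- libraries.

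Markers of testis cells other than germ cells were also read in these gonocyte libraries. Like Dlk1, the interstitial, Leydig and Sertoli sums were highest in Tex15-/- replicate 2 and next highest in Tex15-/- replicate 3. The 5 interstitial genes (Pdgfra, Col1a1, Col3a1, Tcf21, Nr2f2) summed to 52.7 to 66.1 CPM in controls against 51.3, 1367 and 327 CPM in Tex15-/- replicates 1, 2 and 3. The 5 Leydig genes summed to 17.7 to 59.2 CPM in controls against 34.2, 547 and 169 CPM, with Insl3 at 0 reads in 4 libraries. The 5 Sertoli genes summed to 11.5 to 13.2 CPM and 12.3, 100.3 and 67.8 CPM. The 4 endothelial genes summed to 53.6 to 55.4 CPM and 40.8, 194 and 52.2 CPM, and the 5 blood genes stayed at or below 11.3 CPM. The 6 germ cell genes stayed at 1913 to 2054 CPM and 1859 to 1978 CPM. Their part in the Dlk1 values was not tested.

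Genes for the steps of microRNA biogenesis and editing gave no call. Of 16 processing genes, from Drosha and Dicer1 to the tailing enzymes Tut4 and Tut7, 0 passed in edgeR at an adjusted p under 0.01, 1 had an unadjusted p under 0.05 (9.2% of all genes did), and their median log2 fold change was -0.05 (all genes -0.00). The 3 editing genes gave 0 calls, with Adar at 43.6 to 56.5 CPM in controls against 36.0 to 50.3 CPM in Tex15-/- libraries. The 10 genes tied to imprint control also gave 0 calls, with 4 of 10 at an unadjusted p under 0.05, beside the same 9.2%, and 8 with a log2 fold change above 0, where 8153 of the 16311 genes tested were. With Tex15-/- replicate 2 left out, in which the interstitial and Leydig sums were highest, 2 of 10 reached that p, beside 5.71% of all genes, and 8 were above 0. In that library Zfp57, a zinc finger protein that maintains imprints, was at 15.3 CPM and Aff3 at 138 CPM, against at most 5.09 and 70.8 CPM elsewhere. With all libraries the 4 genes were Zfp57, Trim28, Tet2 and Dppa3, and Aff3 was not among them. Trim28 was at 220 to 280 CPM in controls against 300 to 313 CPM in Tex15-/- libraries. Tet2 was at 54.9 to 66.3 against 75.4 to 82.4 CPM, and neither of these overlapped. Dppa3 was lower, at 42.8 to 60.8 against 18.2 to 44.3 CPM, with overlap. The part of other cell types in these values was not tested. DESeq2 was not tallied for these lists.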

How the data were processed

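Small RNA of 15 to 40 nt from 6 pooled E16.5 foetal testes a library was sequenced for 3 Tex15+/- and 3 Tex15-/- libraries. The authors trimmed reads with cutadapt 1.8.1, annotated them with Bowtie 1.2.1.1 (mm10, the same build as GRCm38, per the labels) and deposited tables with the read count of each distinct sequence and its annotation class. Repeat annotation allowed up to 3 mismatches, so variant reads could be filed as repeats. Gonocyte reads were mapped with HISAT2 and counted per gene with HTSeq 0.11.1 by the authors, giving raw counts, and 61.3 to 67.3% of reads fell in the rows that name no gene, which were left out.

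Here counts were summed per mature name. The annotation gave every mature sequence 1 name, even where its bases fit another. Groups follow the labels. Tex15 reads check them in gonocytes, but no value in the small RNA tables checks the genotype, and the letters in the deposited names of those libraries are used the other way round from those of the gonocyte libraries. edgeR 4.0.16 (quasi-likelihood test, TMM factors, filterByExpr with a minimum count of 10, Benjamini-Hochberg adjustment over all names or genes tested, call at adjusted p under 0.01) was the main test in R 4.3.3, and DESeq2 1.42.0 an alternative. Shares were compared with exact two-sided permutation tests over libraries (scipy 1.17.1). The edgeR fits were tested on simulated counts with a coefficient of variation of 0.2. At adjusted p under 0.01, 79% of planted log2 fold changes of 1 were recovered for microRNAs and 61% for genes. Larger planted changes were all recovered (100%), with 3 false calls for microRNAs and 3 for genes. Changes were planted among abundant names or genes only, so recovery at low counts was not tested. Read floors cover counting error only, since reads had no molecular identifiers. The SD and SE values also hold the spread between libraries.

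The members, position groups and gene lists were chosen with earlier results of these data known. Members named were the 15 with the highest mean RPM, any with adjusted p under 0.05, the anti-Rtl1 names and both arms of miR-127, miR-376 and miR-379, and others are named as chosen after their values were seen. Of the genes, every domain gene and any list gene with adjusted p under 0.05 were named by rule. Other list genes were named after their values were seen. Alternatives tried were other library sizes and denominators, filters, read lengths, distinct sequences, a replicate block and leaving out each library. The postnatal libraries and the repeat element tables were not used here.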

Additional observations from a re-analysis of the deposited data

How the results depend on the processing

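The cluster total kept its direction under every alternative run, its log2 ratio of Tex15-/- to control going from 0.08 to 0.20 with all reads of 18 to 32 nt as the denominator. With that denominator the proximal, distal and anti-Rtl1 ratios moved from -0.01, 0.08 and 0.00 to 0.11, 0.21 and 0.12. With reads of any class that hold bases 2 to 17 (like DESeq2 at 0.05, a setting chosen after seeing the data), the proximal and anti-Rtl1 ratios became 0.14 and 0.15. Counting only sequences with a single name changed nothing, because the annotation gave every mature sequence 1 name. This setting therefore could not test for sequences that fit more than 1 name. An example is miR-299b-3p, whose sequence is the start of that of miR-299a-3p. It had no reads in control replicate 1 and Tex15-/- replicates 1 and 3. Members called went from 0 to 1 (miR-485-5p) with DESeq2, at 0.01 and at 0.05, and stayed at 0 at 0.01 in every other setting run (with reads of any class miR-485-5p could not be counted, having no RefSeq sequence here, and at 0.05 edgeR with no filter also gave 1, miR-485-5p), while over all mature names DESeq2 called 9 higher and 2 lower and edgeR with no filter 4 higher and 3 lower, against 0. Domain genes called in gonocytes went from 0 to 1 (Dlk1) with no filter on low counts, where 488 genes were called in all, and ranged from 0 to 1 when 1 library was left out, the call being made without Tex15-/- replicate 1, where 388 genes of 17520 were called. Hairpins whose arm shares did not overlap ranged from 6 to 13 when 1 library was left out, against 6 with all libraries, being 10 if control replicate 2 was dropped, 12 for Tex15-/- replicate 1 and 13 for Tex15-/- replicate 3, beside 66, 72 and 81 of all 185 hairpins in the same settings and 51 with all libraries. Leaving out a library moved the cluster total between 0.04 and 0.12. Of 374 alternative values for the 27 members that the naming rule gives (miR-485-5p is not one of them), none crossed the threshold and 31 changed sign.

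The replicate numbers of the groups do not mark a shared animal, and the labels do not say whether they mark a shared litter or batch. Same-numbered microRNA libraries correlated in their deviations by 0.0819, 0.185 and 0.175, and differently numbered ones by -0.160 to -0.0255. As the same-numbered values were not all over 0.1, the numbers were taken to be names only. Every control library nevertheless correlated best with its own number. With the replicate block no member was called, the cluster total had an exact permutation p of 0.5 by sign flips within pairs, where 0.25 is the smallest possible, and 12 of 34 member hairpins moved the same way in all 3 pairs, beside 81 of all 185. For the gonocytes the block left 0 domain genes called.

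The 15 untested members averaged under 1 RPM by the mature label (miR-382-3p among them, although 21359 reads of any class held its bases 2 to 17), and with 3 libraries a group the exact tests cannot go below p = 0.1.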
